A study of Mus musculus with 15 samples.

Results

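Fos, Jun, Junb, Jund, Egr1, Ier2, Ier3, Atf3, Myc and Dusp1 are genes most of which cells switch on within minutes of a growth signal or a stress, and 4 of them encode subunits of the transcription factor AP-1. They were followed across 15 arrays of mouse liver. A gene was taken as the average of the probe sets whose only symbol is its own, so that these 10 genes, all measured, stand for 11 probe sets among 12393 genes with 20380 probe sets. Jun has 2 probe sets and each of the other 9 genes has 1.

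Total RNA of liver from mice of the background C57B6SJL, 15 months old and without any treatment, was hybridized in 3 groups of 5 arrays. The first group is liver of wild type mice, given as healthy. The other 2 groups come from MAT1A knockout mice with hepatocellular carcinoma, which lack the liver enzyme that makes S-adenosylmethionine: 5 samples of the tissue around the tumor, called peritumoral here, and 5 of the tumor itself. Both knockout groups carry the deletion, so knockout and tumor cannot be told apart in the comparison of tumors with wild type liver, and the comparison of tumors with peritumoral liver is the one within the knockout. The knockout samples are given as biological replicates and the wild type samples only as replicates, so the p-values measure the spread between these samples. Each sample holds all cells of the tissue, where fewer cells of a type and less RNA per cell cannot be told apart.

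Immediate early genes need no new protein for their transcription, since the factors that switch them on already sit in the cell and are activated by kinases. Their messages are short-lived, and several of the proteins, such as Fos, Jun, Egr1 and Myc, are themselves transcription factors that pass the signal on to slower genes, whereas Dusp1 removes the phosphates from the kinases and closes the loop. In the liver the group is known for its rapid induction after partial removal of the organ and after injury, and its messages can also rise while tissue is being taken and handled.

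Values are log2 signals after RMA, the authors' normalization, on which a difference of 1 is a doubling. The medians of the 15 arrays lay between 5.47 and 5.68, and 5 of 6 listed hepatocyte markers were measured, with a summed signal between 16.01 and 16.48 (log2) in all 15. Mat1a was 12.53 ± 0.23 (SD, n = 5) in wild type liver, 9.52 ± 1.09 in peritumoral liver and 9.33 ± 1.06 in tumors, and all 10 knockout arrays lay below all 5 wild type arrays, although the probe set may lie outside the deleted part. Among the knockout arrays Mat1a was highest in peritumoral replicate 2 (11.44), tumor replicate 5 (10.50) and tumor replicate 2 (10.47), which are also the knockout arrays with the highest mean of the 10 genes described here. Across genes, wild type replicate 4 correlated with its group at a mean of 0.963 against 0.981 to 0.984 for the other 4, and peritumoral replicate 2 at 0.938 against 0.971 to 0.977. Tumor replicates 2 and 5 were at 0.929 and 0.931, and the other 3 tumors at 0.950 to 0.960. Some results that turn on these arrays are also given without them.

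The promoters of 7 of the 10 genes were found in RefSeq (build GRCm38.p6), each as a window of 300 bases, with 250 before the start of the gene and 50 from it on. Those of Ier3 and Atf3, the 2 genes whose tumor and wild type arrays did not overlap, and of Fos and Jun, which together name the AP-1 dimer, are printed 5′ to 3′ on the strand of the gene. Capitals mark the bases of short motifs that a search on both strands found: the cyclic AMP response element TGACGTCA, its relaxed form TGACNTCA, its short form TGACG (which lies within the full element, so that the matches overlap), the AP-1 site TGANTCA, the Egr1 site GCGNGGGCG, the CArG box of serum response factor, the NF-kB site and the TATA box TATAAA. The Ier3 window lies at chr17:35821463-35821762 on the plus strand, that of Atf3 at chr1:191183284-191183583 on the minus strand, that of Fos at chr12:85473640-85473939 on the plus strand and that of Jun at chr4:95052173-95052472 on the minus strand.
Ier3: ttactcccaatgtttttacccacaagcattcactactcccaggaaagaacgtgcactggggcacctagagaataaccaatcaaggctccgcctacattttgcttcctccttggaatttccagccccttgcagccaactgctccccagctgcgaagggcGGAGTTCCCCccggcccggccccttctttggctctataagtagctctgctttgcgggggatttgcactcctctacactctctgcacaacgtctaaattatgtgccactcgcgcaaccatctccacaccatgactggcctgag
Atf3: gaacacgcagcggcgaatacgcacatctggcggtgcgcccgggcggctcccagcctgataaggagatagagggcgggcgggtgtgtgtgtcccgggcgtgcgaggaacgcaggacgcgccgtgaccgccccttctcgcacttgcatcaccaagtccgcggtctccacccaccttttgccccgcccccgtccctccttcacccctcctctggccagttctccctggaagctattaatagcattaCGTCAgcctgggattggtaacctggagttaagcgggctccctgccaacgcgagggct
Fos: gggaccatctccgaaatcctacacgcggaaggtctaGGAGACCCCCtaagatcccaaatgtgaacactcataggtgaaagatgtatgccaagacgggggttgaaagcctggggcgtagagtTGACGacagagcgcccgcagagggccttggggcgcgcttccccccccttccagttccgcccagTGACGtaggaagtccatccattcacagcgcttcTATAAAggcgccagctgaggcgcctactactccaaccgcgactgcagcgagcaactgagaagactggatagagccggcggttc
Jun: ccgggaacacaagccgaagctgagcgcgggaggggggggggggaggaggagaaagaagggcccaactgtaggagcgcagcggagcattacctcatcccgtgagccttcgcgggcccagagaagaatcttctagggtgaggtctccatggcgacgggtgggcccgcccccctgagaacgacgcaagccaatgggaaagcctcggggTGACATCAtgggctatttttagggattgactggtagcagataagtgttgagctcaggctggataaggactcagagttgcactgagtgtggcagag

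The Fos window holds the short form TGACG at 129 and at 66 bases upstream of the start, the TATA box at 33 and a match to the NF-kB site at 214. In Jun the relaxed element reads TGACATCA and begins 45 bases upstream, and in Atf3 the short form lies on the other strand, 7 bases upstream. In Ier3 the marked bases are a match to the NF-kB site, 92 bases upstream. Of the windows not printed, Dusp1 holds the full element TGACGTCA at 143 bases upstream, Junb holds TGACG at 106 and Jund holds none of the marked motifs.

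Such matches are a description of letters and show no binding. Among 32851 promoter windows of the same length, 20.8% hold TGACG, against 4 of the 7 genes (Fos, Junb, Atf3 and Dusp1). The relaxed element is in 8.83% of windows and in 2 of the 7, the full element in 1.79% and in 1, the NF-kB site in 4.51% and in 2, and TATAAA in 13.6% and in 2. The AP-1 site (7.81% of all windows), the Egr1 site (5.55%) and the CArG box (1.63%) have no match in the 7 windows. Egr1, Ier2 and Myc had no window and were not searched, and sites more than 250 bases upstream lie outside the windows.

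**Figure D1:**
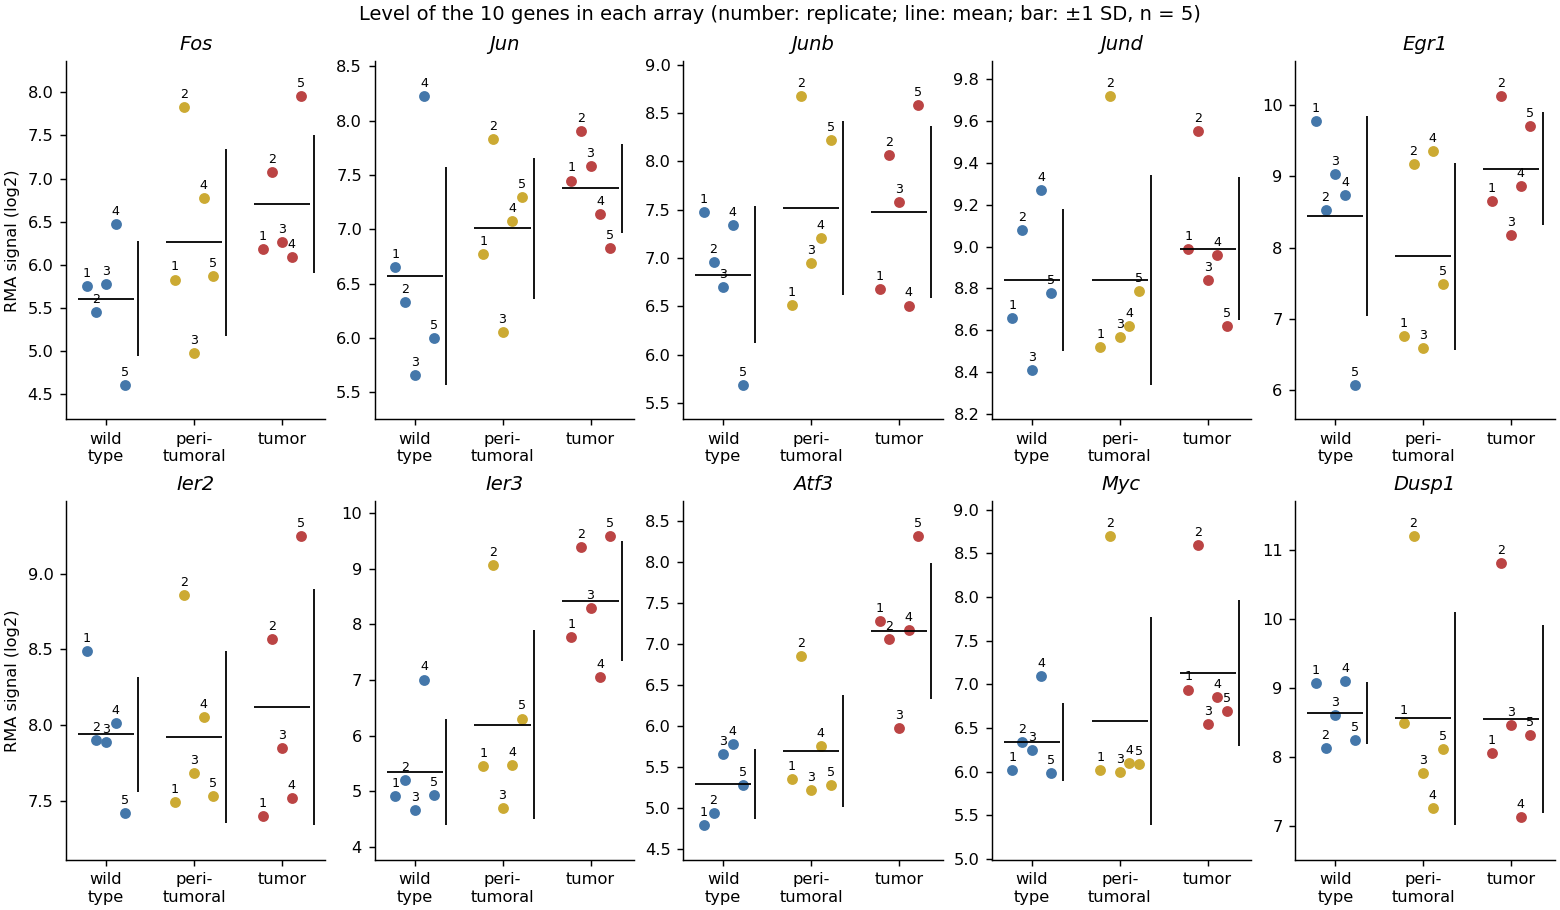
Log2 RMA signal of the 10 genes in each of the 15 arrays, by group, with the mean and SD of 5 arrays. Ier3 and Atf3 are the genes whose 5 tumors all lie above the 5 wild type arrays, and Egr1 spans 3.70 log2 units within wild type liver.

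In tumors against wild type liver, 1 of the 10 genes passed the test, Ier3, which was 8.42-fold higher. Atf3 was 3.65-fold higher without overlap between the groups and missed the threshold, Fos was 2.15-fold higher with overlap, and Jund, Ier2 and Dusp1 had mean log2 ratios between -0.08 and 0.18. The test was limma on all 12393 genes with Benjamini-Hochberg adjustment and a threshold of 0.05, and it called 0.565% of all genes, 0.339% higher and 0.226% lower. The groups did not overlap for Ier3 and Atf3, against 2.23% of all genes with all tumors higher. At an unadjusted p under 0.05 Fos, Ier3 and Atf3 were higher in tumors, against 7.46% of all genes. These 3 were also the genes with a log2 ratio of at least 1, against 2.17%, and 9 of the 10 had a ratio above 0, against 41.0%.

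Ier3 encodes a small protein that acts in cell survival and is induced by NF-kB and by growth factors. Ier3 read 4.92, 5.20, 4.67, 7.01 and 4.93 in wild type replicates 1 to 5, then 5.45, 9.06, 4.70, 5.47 and 6.31 in the peritumoral samples and 7.77, 9.39, 8.29, 7.06 and 9.59 in the tumors. Each tumor lay above each wild type array, but tumor replicate 4 by only a small step above wild type replicate 4, which stood far above the other wild type arrays. Peritumoral replicate 2 lay within the range of the tumors, and the other peritumoral samples lay between the lowest wild type array and wild type replicate 4. The tumors had a mean of 8.42 ± 1.07 (SD, n = 5) against 5.35 ± 0.95 for the wild type, and the log2 ratio was 3.07 (SE 0.57, 95% interval 1.81 to 4.33, limma adjusted p = 0.0486). The two-sided exact permutation test over the 252 splits of 5 against 5 gave p = 0.00794, the smallest it can give, which came to 0.157 after adjustment over all genes.

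The call of Ier3 rests close to the threshold. It held without wild type replicate 4 (log2 ratio 3.49, limma adjusted p = 0.00913) and was lost when any 1 of the other 9 arrays was left out, with a log2 ratio of 2.78 to 3.41 and an adjusted p of 0.054 to 0.152. Against peritumoral liver, with a mean of 6.20 ± 1.70, the tumors were higher by 2.22 (SE 0.80, 95% interval 0.43 to 4.01, limma adjusted p = 0.451), and by 2.94 (adjusted p = 0.102) without peritumoral replicate 2. Peritumoral against wild type liver gave 0.85 (SE 0.77, 95% interval -0.84 to 2.55, limma adjusted p = 0.576), and 0.14 without peritumoral replicate 2.

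Atf3 encodes a stress-induced factor of the ATF family that pairs with Jun proteins. Atf3 read 4.80, 4.95, 5.66, 5.79 and 5.29 in wild type liver, 5.36, 6.86, 5.22, 5.76 and 5.29 in peritumoral liver and 7.28, 7.06, 5.98, 7.17 and 8.32 in the tumors. The tumors again lay above all wild type arrays, tumor replicate 3 least and tumor replicate 5 most, and peritumoral replicate 2 was the only peritumoral sample above the wild type range. The log2 ratio of tumors to wild type liver was 1.87 (SE 0.37, 95% interval 1.04 to 2.70), with an adjusted p of 0.0586 by limma and p = 0.00794 in the exact permutation test. The limma adjusted p fell below 0.05 without wild type replicate 4 (log2 ratio 1.99, limma adjusted p = 0.0359) or tumor replicate 3 (2.16, adjusted p = 0.0178), was 0.05 without tumor replicate 5, and lay between 0.063 and 0.171 without any 1 of the other 7 arrays. Against peritumoral liver the tumors were higher by 1.47 (SE 0.43, 95% interval 0.50 to 2.43, limma adjusted p = 0.306), and peritumoral against wild type liver gave 0.40 (95% interval -0.31 to 1.11, adjusted p = 0.538). Without peritumoral replicate 2 these ratios were 1.76 (limma adjusted p = 0.163) and 0.11 (limma adjusted p = 0.793).

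**Figure D2:**
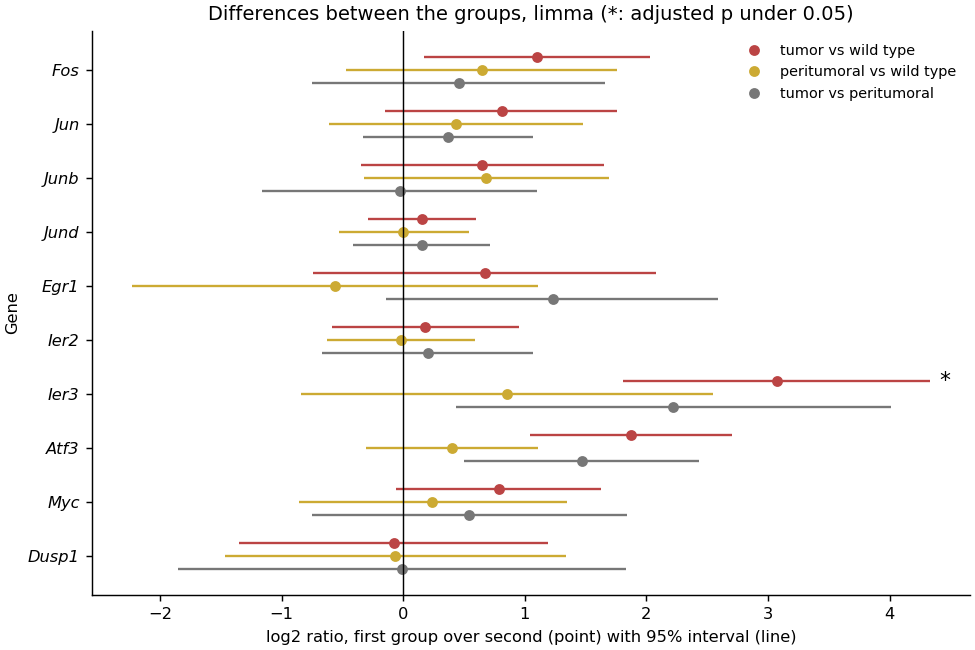
Log2 ratio of each of the 10 genes in the 3 comparisons, with the 95% interval of the limma fit of 5 against 5 arrays. Only Ier3 in tumors against wild type liver passed the adjusted threshold, and the intervals of Fos and Atf3 in that comparison and of Ier3 and Atf3 in tumors against peritumoral liver also leave out 0.

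Among the AP-1 subunits, none of Fos, Jun, Junb and Jund passed in any comparison. Fos, which forms AP-1 only as a partner of a Jun protein, read 5.75, 5.45, 5.78, 6.47 and 4.61 in wild type liver, 5.83, 7.83, 4.98, 6.77 and 5.87 in peritumoral liver and 6.18, 7.08, 6.26, 6.09 and 7.96 in tumors. The groups overlapped in each comparison, with peritumoral replicate 2 and tumor replicate 5 high and wild type replicate 5 low. The log2 ratio of tumors to wild type liver was 1.10 (SE 0.42, 95% interval 0.17 to 2.03, limma adjusted p = 0.223). It was 0.65 for peritumoral against wild type liver (95% interval -0.47 to 1.76, adjusted p = 0.528, and 0.25 to 0.96 with any 1 array left out). Tumors against peritumoral liver gave 0.46 (adjusted p = 0.859).

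Jun, which binds the AP-1 site alone or with Fos, read 6.65, 6.33, 5.66, 8.23 and 6.00 in wild type liver, 6.77, 7.83, 6.06, 7.08 and 7.30 in peritumoral liver and 7.45, 7.91, 7.58, 7.14 and 6.83 in tumors. Wild type replicate 4 had the highest value of all 15 arrays, and the tumors otherwise lay above the other 4 wild type arrays. The log2 ratio was 0.81 (SE 0.43, 95% interval -0.15 to 1.76, limma adjusted p = 0.358), and 1.22 without wild type replicate 4 (adjusted p = 0.04), the one array whose removal brought Jun past the threshold. In peritumoral liver it was 0.43 above wild type (95% interval -0.61 to 1.48, adjusted p = 0.643), and tumors were 0.37 above peritumoral liver (95% interval -0.33 to 1.07, adjusted p = 0.784). The 2 probe sets of Jun both had wild type replicate 4 highest, at 8.65 and 7.82, and wild type replicate 3 lowest, at 5.91 and 5.40.

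Junb, a Jun relative that is a weaker activator at many sites, read 7.48, 6.96, 6.70, 7.34 and 5.69 in wild type liver, 6.52, 8.68, 6.95, 7.21 and 8.22 in peritumoral liver and 6.68, 8.07, 7.58, 6.51 and 8.58 in tumors. Replicates 2 and 5 of both knockout groups were above every wild type array, replicates 1 and 4 were not, and of those numbered 3 the tumor alone was. Both knockout groups were higher than wild type liver on average, by 0.68 in peritumoral liver (95% interval -0.32 to 1.69, limma adjusted p = 0.469) and by 0.65 in tumors (95% interval -0.35 to 1.65, adjusted p = 0.473). With any 1 array left out the ratio ranged from 0.39 to 0.93 in peritumoral liver and from 0.37 to 0.89 in tumors. Tumors and peritumoral liver differed by -0.03 (95% interval -1.16 to 1.10).

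Jund is the subunit that most cells hold steadily, also without a stimulus. Jund read 8.66, 9.08, 8.41, 9.27 and 8.78 in wild type liver, 8.52, 9.72, 8.57, 8.62 and 8.79 in peritumoral liver and 8.99, 9.55, 8.84, 8.96 and 8.62 in tumors. Replicate 2 was the highest of both knockout groups and the groups overlapped almost fully, with 95% intervals of -0.29 to 0.60 for tumors and -0.53 to 0.54 for peritumoral liver against wild type liver. Tumors differed from peritumoral liver by 0.15 (95% interval -0.41 to 0.71, limma adjusted p = 0.913). Of the 10 genes its SD was the lowest in each group (0.34, 0.50 and 0.34). The other Fos relatives, Fosb, Fosl1 and Fosl2, had log2 ratios of -0.02, -0.11 and -0.13 in tumors and 0.03, -0.05 and -0.21 in peritumoral liver against wild type liver, none of which passed (limma adjusted p of 0.493 or more). In tumors against peritumoral liver they were at -0.05, -0.06 and 0.08 (adjusted p of 0.918 or more).

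Egr1 is a zinc finger factor induced through serum response factor, and of the 10 genes it varied most within wild type liver. Egr1 read 9.78, 8.53, 9.04, 8.74 and 6.08 in wild type liver, 6.77, 9.18, 6.60, 9.36 and 7.49 in peritumoral liver and 8.66, 10.13, 8.18, 8.86 and 9.70 in tumors. Wild type replicate 5 was the lowest and tumor replicate 2 the highest of the 15 arrays, so the wild type arrays alone spanned 3.70 log2 units, or 13-fold. Peritumoral liver had 3 samples (replicates 1, 3 and 5) below all tumors and 2 within the tumor range. The log2 ratio of tumors to peritumoral liver was 1.23 (SE 0.61, 95% interval -0.14 to 2.59, limma adjusted p = 0.596). Against wild type liver it was 0.67 for tumors (95% interval -0.74 to 2.08, adjusted p = 0.601, and 0.08 without wild type replicate 5) and -0.56 for peritumoral liver (95% interval -2.23 to 1.11, adjusted p = 0.717, and -1.14 without that array), so that the peritumoral mean was the lowest of the 3 (7.88, against 8.44 and 9.11).

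Ier2, a nuclear protein named as an immediate early gene, read 8.49, 7.90, 7.89, 8.01 and 7.42 in wild type liver, 7.49, 8.86, 7.68, 8.05 and 7.53 in peritumoral liver and 7.40, 8.57, 7.85, 7.52 and 9.25 in tumors. Peritumoral replicate 2 and tumor replicates 2 and 5 were above all wild type arrays, and all other knockout samples lay within or, for tumor replicate 1, just below the wild type range. The log2 ratios were 0.18 for tumors (95% interval -0.59 to 0.95, limma adjusted p = 0.812) and -0.02 for peritumoral liver (95% interval -0.63 to 0.59) against wild type liver, and 0.20 for tumors against peritumoral liver (95% interval -0.67 to 1.07, adjusted p = 0.927).

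Myc, the factor that drives growth and ribosome genes, read 6.02, 6.34, 6.25, 7.09 and 5.98 in wild type liver, 6.02, 8.70, 6.00, 6.10 and 6.09 in peritumoral liver and 6.94, 8.60, 6.55, 6.85 and 6.69 in tumors. The peritumoral and tumor samples numbered 2 stood alone at the top of the 15 arrays. The remaining 4 tumors lay between 6.55 and 6.94, above the remaining 4 peritumoral samples (6.00 to 6.10) and above 4 of the wild type arrays, with wild type replicate 4 higher still. With all arrays the log2 ratio of tumors to wild type liver was 0.79 (SE 0.38, 95% interval -0.06 to 1.63, limma adjusted p = 0.314) and that to peritumoral liver 0.54 (95% interval -0.75 to 1.84, adjusted p = 0.837). Peritumoral against wild type liver gave 0.24 (95% interval -0.86 to 1.35, limma adjusted p = 0.816). Without wild type replicate 4 and replicate 2 of both knockout groups, the ratios of tumors were 0.61 (adjusted p = 0.0385) and 0.71 (adjusted p = 0.0489), and peritumoral liver was -0.10 from wild type liver. These 3 arrays hold the 3 highest Myc values of the 15, so leaving them out takes the top value from each group and narrows its spread. The same step raised the number of all genes that passed from 70 to 569 against wild type liver and from 2 to 40 against peritumoral liver.

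Dusp1, the phosphatase that switches off the p38 and JNK kinases, read 9.07, 8.12, 8.61, 9.10 and 8.25 in wild type liver, 8.49, 11.21, 7.76, 7.25 and 8.11 in peritumoral liver and 8.05, 10.82, 8.46, 7.12 and 8.31 in tumors. The knockout samples numbered 2 were again far above all other arrays, and the knockout samples numbered 4 were the lowest of the 15. The means of the 3 groups were 8.63 ± 0.45, 8.56 ± 1.55 and 8.55 ± 1.37 (SD, n = 5 each). The log2 ratio of tumors to wild type liver was -0.08 (95% interval -1.35 to 1.19, limma adjusted p = 0.956) and that of peritumoral liver -0.07 (95% interval -1.47 to 1.34, and -0.73 without peritumoral replicate 2). Tumors against peritumoral liver gave -0.01 (95% interval -1.85 to 1.83), and 0.65 without that array.

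In peritumoral against wild type liver none of the 10 genes passed, against 0.0403% of all genes, and for none of them did the groups stay apart, against 3.20%. A ratio above 0 was found for 7 of the 10, against 38.9%, and no p was under 0.05 before adjustment, against 5.18% of all genes higher and 9.88% lower. In tumors against peritumoral liver none passed, against 0.0161%, and none kept the groups apart, against 2.33%. Before adjustment Ier3 and Atf3 were higher in tumors (unadjusted limma p under 0.05), against 4.65% of all genes, and Egr1, Ier3 and Atf3 had a log2 ratio of at least 1, against 1.12%. A ratio above 0 was found for 8 of the 10, against 54.0%. The median log2 ratio of the 10 genes was 0.73 in tumors against wild type liver, where that of all genes was -0.05, 0.32 in peritumoral against wild type liver (all genes -0.06) and 0.41 in tumors against peritumoral liver (all genes 0.02). The first 2 comparisons share the wild type arrays and the other pairs of comparisons share a knockout group.

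**Figure D3:**
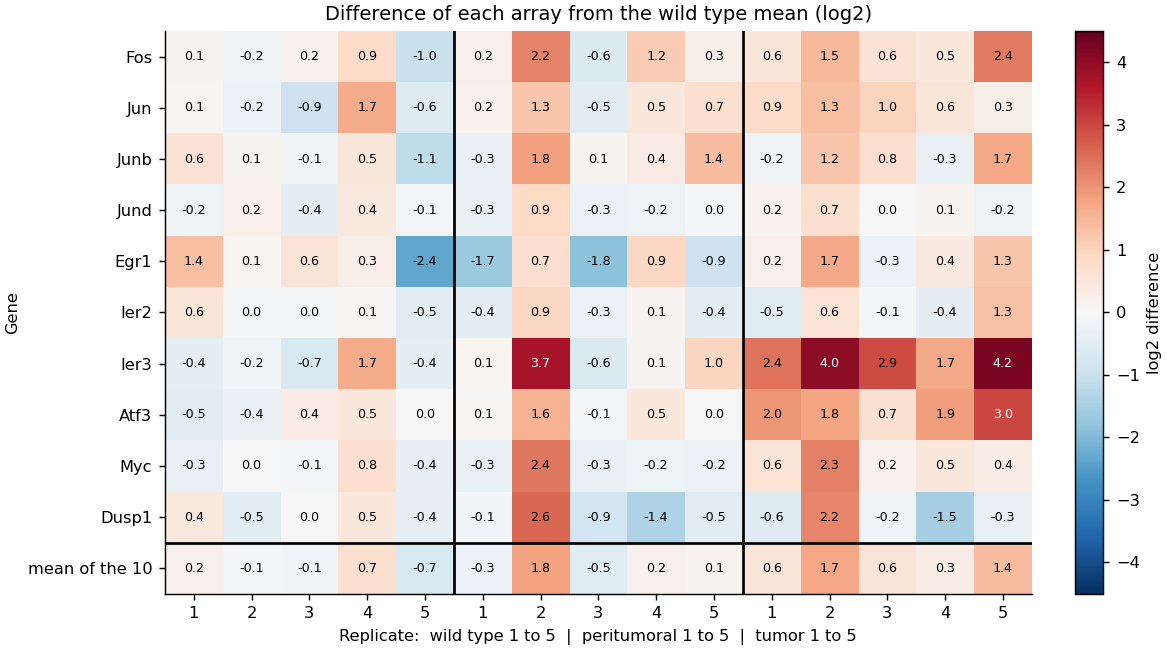
Difference of each gene in each array from its wild type mean (log2), with the mean over the 10 genes in the last line. Peritumoral replicate 2 and tumor replicates 2 and 5 are the arrays furthest above the wild type mean (1.81, 1.73 and 1.4).

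Single arrays stood apart within each group. The mean difference of the 10 genes from their wild type means was 0.18, -0.10, -0.12, 0.72 and -0.68 in wild type replicates 1 to 5, so that the wild type arrays alone spanned replicate 4 with all 10 genes above the mean and replicate 5 with none. It was -0.26, 1.81, -0.53, 0.18 and 0.12 in peritumoral liver and 0.56, 1.73, 0.57, 0.34 and 1.4 in tumors. All 5 tumors were thus above 0, as were peritumoral replicates 2, 4 and 5 and wild type replicates 1 and 4. Only peritumoral replicate 2 and tumor replicates 2 and 5 were above every wild type array. Tumor replicates 1, 3 and 4 lay below wild type replicate 4. In peritumoral replicate 2, 8 of the 10 genes were above all wild type arrays, in tumor replicate 2, 9 of the 10, and in tumor replicate 5, 5 of the 10. The other 3 tumors had 2, 3 and 2 such genes, and the other 4 peritumoral samples 0, 0, 1 and 1. The share of all genes above every wild type array was not counted for single arrays. Whether these counts are particular to the 10 genes was therefore not tested.

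The highest of the 15 values fell in peritumoral replicate 2 for 4 genes (Junb, Jund, Myc and Dusp1), in tumor replicate 5 for 4 (Fos, Ier2, Ier3 and Atf3), in tumor replicate 2 for Egr1 and in wild type replicate 4 for Jun. The high arrays were therefore not alike: knockout samples numbered 2 led in Myc, Dusp1 and Jund, and tumor replicate 5 had Myc at 6.69, Dusp1 at 8.31 and Jund at 8.62, all within the wild type range, beside the highest Fos, Ier2, Ier3 and Atf3.

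Other values moved with these arrays. In wild type replicate 4 the summed signal of the neutrophil markers was 14.20 (log2), where the other 4 wild type arrays reached at most 8.62, its B and plasma cell markers were the highest of the wild type arrays at 9.42, and its erythroid markers were at 7.84 against 9.57 to 9.96. That array was also the highest of the wild type for macrophage (12.14), T and NK cell (7.28), stellate and fibroblast (11.52) and endothelial (9.72) markers. Peritumoral replicate 2 had the highest B and plasma cell markers of its group, at 11.30, and the highest stellate and fibroblast markers, at 12.11. Its macrophage (12.04), T and NK cell (6.90), bile duct (7.38) and hepatocyte (16.43) markers were the highest of the group as well. Tumor replicate 2 had the highest B and plasma cell (9.46) and hepatocyte (16.48) markers of the tumors, and the lowest erythroid markers of the 15 arrays, at 7.22. Tumor replicate 5 had the highest neutrophil markers of the tumors, at 10.83. It had their lowest stellate and fibroblast (9.55), macrophage (10.38), endothelial (8.45) and bile duct (6.80) markers. The neutrophil markers ranged from 7.64 to 11.19 in peritumoral liver and from 7.93 to 10.83 in tumors, and those of macrophages from 10.27 to 12.14, 10.90 to 12.04 and 10.38 to 11.54 in the 3 groups. Their part in the levels of the 10 genes was not tested. The difference between 3′ and 5′ probe sets of Gapdh, a sign of RNA quality, was -0.23 to 0.25 in wild type liver, -0.25 to -0.05 in peritumoral liver and -0.35 to -0.16 in tumors. That of Actb was 0.54 to 1.11, 0.53 to 0.83 and 0.41 to 0.87, and that of Tfrc 1.19 to 1.51, 1.31 to 1.67 and 1.28 to 1.78. In each control tumor replicate 5 was the highest of the tumors, and wild type replicate 4 the lowest of the wild type arrays. Replicate 2 of the knockout groups was not at the same end of its group in each control. The part of RNA quality in the levels was not tested.

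**Figure D4:**
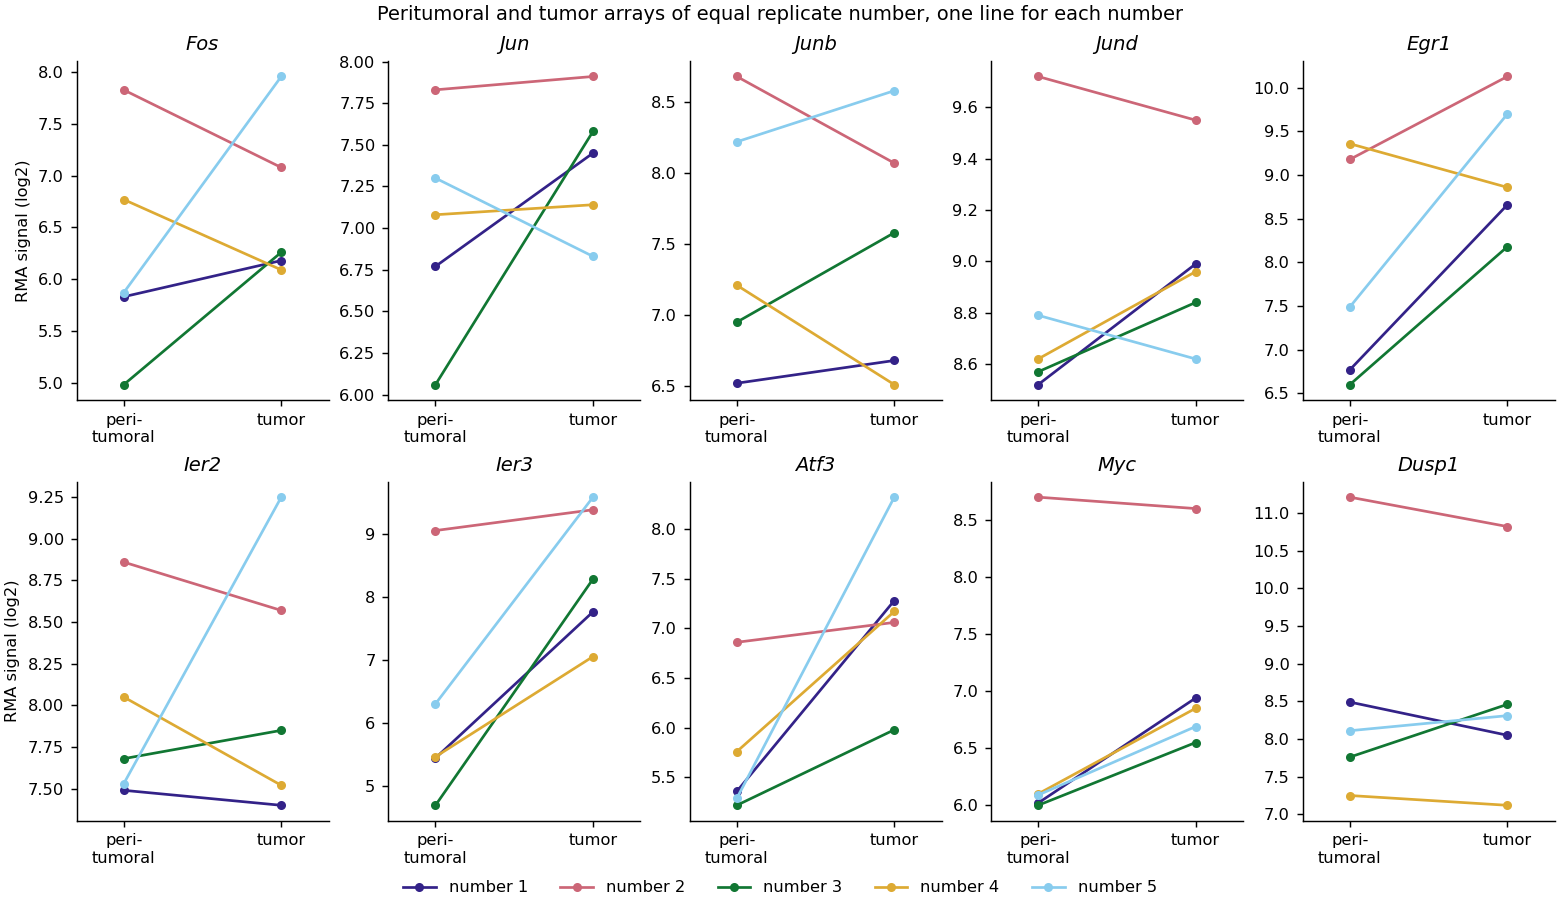
Log2 RMA signal of the 10 genes in peritumoral liver and in the tumor of equal replicate number, each number as a line. Ier3 and Atf3 are higher in the tumor in all 5 lines, and number 2 starts high in most panels.

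The knockout samples are numbered 1 to 5 in both groups, and equal numbers deviated together across genes (r of 0.117 to 0.673, with tumor replicate 4 closer to peritumoral replicate 1 than to 4), so tumors were also set against the peritumoral sample of the same number. The labels do not say that equal numbers are 1 animal. Peritumoral and wild type arrays of equal number reached r = 0.207, so the pairing is not established. Ier3 was higher in the tumor by 2.32, 0.32, 3.59, 1.58 and 3.28 and Atf3 by 1.92, 0.21, 0.77, 1.41 and 3.03, both in 5 of 5 pairs and both least in pair 2. With the number as a block, the limma adjusted p was 0.168 for Ier3 and 0.220 for Atf3, and none of the 10 genes passed. Myc differed by 0.93, -0.10, 0.55, 0.74 and 0.60, and Egr1 by 1.90, 0.95, 1.58, -0.50 and 2.21, each higher in 4 of 5 pairs. Over all 10 genes, the tumor was higher for 8, 4, 10, 5 and 8 genes in pairs 1 to 5. The share of all genes higher in the tumor was not counted, either for single pairs or for all 5. Pair 3, where all 10 were higher in the tumor, holds the peritumoral sample with the lowest mean of the 10 genes, and pair 2 the one with the highest.

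Across the 15 arrays the 10 genes varied together to different degrees. All 45 pairs of them had a Pearson r above 0, from 0.182 (Atf3 and Dusp1) to 0.897 (Jund and Myc), with a median of 0.558 and a median Spearman rho of 0.507. After the group means were taken out, r ran from 0.170 to 0.912 with a median of 0.591. Ier3 went with Fos at r = 0.828, and at 0.829 with the group means taken out, and with Atf3 at 0.844, which was 0.619 with them taken out. All points share the arrays and their normalization, and the arrays that stand apart enter every pair.

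For 6 of the genes, the 3 other genes with the most similar profile over the 15 arrays were taken by the highest Pearson r. They were Rps26, Rps3 and Bcl10 for Fos (0.933, 0.929 and 0.922), Rell1, Actr3 and Cyrib for Jun (0.951, 0.927 and 0.906) and Cct5, Trpc1 and Abt1 for Egr1 (0.809, 0.798 and 0.795). For Ier3 they were Rps19, Prmt1 and Rhoc (0.963, 0.950 and 0.946), for Atf3 Hint1, Timm8a1 and Rps7 (0.945, 0.931 and 0.929) and for Myc Gtpbp2, Pla1a and Ofd1 (0.969, 0.959 and 0.947). Rps26, Rps3, Rps19 and Rps7 encode proteins of the small ribosomal subunit. Without the 2 arrays furthest from the median of the member, r stayed at 0.843 or above for Fos, Jun, Ier3 and Atf3 and fell to 0.706 for Myc and Ofd1 and to 0.662 for Egr1 and Trpc1. The genes were picked by r over these same arrays, so a high r in most of them is no independent check. Spearman rho ran from 0.736 (Egr1 and Cct5) to 0.961 (Jun and Rell1), with 0.757 for Atf3 and Hint1.

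**Figure D5:**
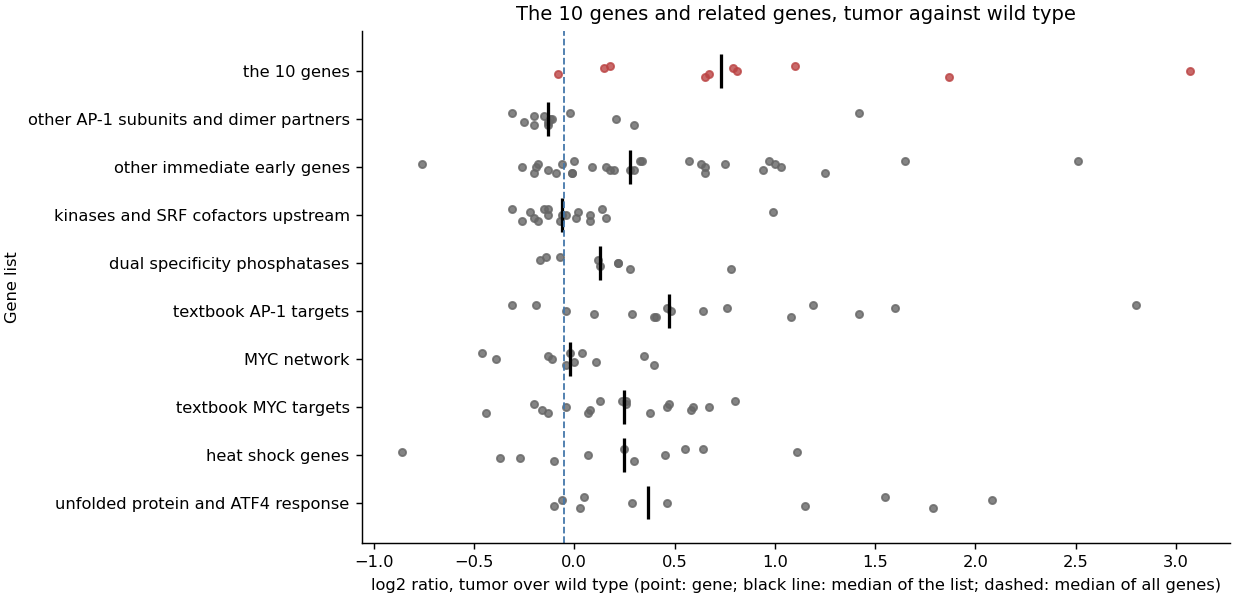
Log2 ratio of tumors to wild type liver for the 10 genes and for each gene of 9 companion lists (points), with the median of each list (black line) and of all 12393 genes (dashed line). The 10 genes have a median of 0.73, the textbook AP-1 targets 0.47 and all genes -0.05.

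The genes around this group in its pathways were counted in the same fits. In tumors against wild type liver none of the listed genes passed among 13 other AP-1 subunits and dimer partners (median log2 ratio -0.13), 31 other immediate early genes (0.28), 18 kinases and cofactors of serum response factor upstream (-0.06), 9 dual specificity phosphatases (0.13), 16 textbook targets of AP-1 (0.47), 11 genes of the Myc network (-0.02), 18 textbook Myc targets (0.25), 11 heat shock genes (0.25) and 10 genes of the unfolded protein and ATF4 response (0.37). In peritumoral against wild type liver 1 gene of these lists passed, Asns, the asparagine synthetase that is a target of ATF4, with a log2 ratio of 2.13 (SE 0.24, limma adjusted p = 0.0116) and all 5 peritumoral samples above all wild type arrays. Without peritumoral replicate 4 its adjusted p was 0.0526. The medians there ran from -0.03 for the heat shock genes to 0.25 for the unfolded protein and ATF4 response. In tumors against peritumoral liver none passed, and the medians ran from -0.04 to 0.19.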

How the data were processed

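Liver RNA of 15 mouse samples, 5 in each of the wild type, peritumoral and tumor groups, was hybridized to Affymetrix mouse arrays. Scanning was done by the authors with GCOS 1.4, and the deposited values are log2 signals from RMA, a method that subtracts background, forces all arrays onto 1 distribution and condenses the probes of a set, so that a shift common to most genes is removed. Per the file headers, a further deposited table holds the authors' ratios of knockout to wild type, and it was not used here. The genome build is not given in the sources used here. Gene names come from the platform annotation supplied with the data.

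From 22690 probe sets, 64 are controls, and the annotation gives 1 symbol to 20393, several to 691 and none to 1606, counts that include the controls. Those with 1 symbol that are no controls, 20380, gave 12393 genes by averaging. The 10 genes and all companion lists were chosen with earlier results of these data known. Each of the 10 is named in each comparison, together with the measured Fos relatives, up to 2 rises and 2 falls that passed in each list, and the 3 most alike genes for 6 of them. Differences were tested with limma 3.58.1 in R 4.3.3 (functions lmFit and eBayes), using the arrays of the compared groups and no covariate. Benjamini-Hochberg adjustment ran over all genes, with 0.05 as threshold. For single genes, exact permutation of the 5 against 5 arrays, two-sided, was added. The fit was tested on simulated data. Precision is limited by the number of arrays.

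Tumor and peritumoral samples carry the same numbers in the labels, which do not say whether a number is 1 animal. Across genes, equally numbered samples of these groups had correlated deviations from their group means (0.353, 0.673, 0.271, 0.308 and 0.117, with 0.1 as minimum). They were also set against each other as pairs, from the data alone, and the main fit had no block. Of the 5 tumors, 4 matched their own number best, and tumor replicate 4 matched peritumoral replicate 1. For wild type arrays the values were -0.223 to 0.207, and no pairing was taken. Some of these values, from different animals, exceeded the minimum and the 0.117 of number 5. The minimum therefore does not tell pairs from other samples, and the pairing is an assumption.

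The tests were repeated with a single probe set per gene (that of highest mean), without cross-hybridizing probe sets, by probe set, in a joint fit of all 3 groups, with a replicate block, after median centering or renewed quantile normalization, without the lowest 40% of genes, with an intensity trend, with array weights, and without each array in turn. They were also repeated without wild type replicate 4 and replicate 2 of both knockout groups (3 arrays that stand apart), alone or with tumor replicate 5. Promoter windows and their coordinates are from RefSeq (GRCm38.p6), and summaries were made in Python 3.11.15.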

Additional observations from a re-analysis of the deposited data

Results flagged for a closer look

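In 4 of the 42 groups of 5 values examined (the 10 genes, Fosb, Fosl1, Fosl2 and Asns), 1 array stood apart from the other 4, in that its gap to the nearest of them, divided by the range of the group, was over Dixon's 95% critical value. Chance alone gives about 1 in 20 such groups. Jund in peritumoral replicate 2 was 9.72, where the others lay between 8.52 and 8.79 (gap over range 0.769). Ier3 in wild type replicate 4 was 7.01, where the others lay between 4.67 and 5.20 (0.775). Myc in peritumoral replicate 2 was 8.70, with the others between 6.00 and 6.10 (0.963), and Myc in tumor replicate 2 was 8.60, with the others between 6.55 and 6.94 (0.809). Replicate 2 of the knockout groups accounts for 3 of the 4. No cause was tested.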

How the results depend on the processing

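Over all alternatives, the 13 AP-1 and immediate early genes named and Asns kept direction and side of the threshold in 809 cases, came past it in 25, lost it in 14 and changed sign in 56, and the cause was not tested. The replicate block also joined equal numbers in the comparisons with wild type liver, where no pairing was taken. In those comparisons the block is arbitrary, and calls lost with it say nothing about a pairing. In tumors against wild type liver, 1 of the 10 genes (70 of all genes) passed. This became 0 of the 10 with the probe set of the highest mean, 2 (287 of all genes) with all 3 groups in 1 fit, 0 (10) with the replicate block, 2 without the 40% lowest genes, 44 of all genes with a trend, 3 (1838) with array weights, 4 (569) without the 3 arrays and 4 (1431) without tumor replicate 5 as well. Leaving out 1 array gave 0 to 3 of the 10 genes (3, and 319 of all genes, without wild type replicate 4) and 10 to 319 of all genes. In peritumoral against wild type liver 0 of the 10 passed under each alternative, and of all genes 5 became 11 with the highest probe set, 12 with 3 groups, 0 with the replicate block, 1082 with array weights, 15 with 1 test per probe set and 958 without the 3 arrays, and ranged from 4 to 267 (without wild type replicate 4) with 1 array left out. In tumors against peritumoral liver 0 of the 10 became 2 with array weights (Ier3, limma adjusted p = 0.0478, and Atf3, 0.00765) and 1 (Myc) without the 3 arrays or these and tumor replicate 5. Of all genes 2 became 4 with the highest probe set, 41 with 3 groups, 1 with the replicate block, 673 with array weights, 4 with 1 test per probe set, 40 without the 3 arrays and 132 without tumor replicate 5 as well, and 0 to 36 (without tumor replicate 2) with 1 array left out.

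Ier3 in tumors against wild type liver had limma adjusted p = 0.052 with the highest probe set, and 0.173 with the replicate block, which is arbitrary there. Its limma adjusted p over all alternatives ran from 0.00109 to 0.173. Atf3 passed with 3 groups (0.0273), without the lowest genes (0.0447), with array weights (0.00169), without the 3 arrays (0.0424) and without tumor replicate 5 as well (0.0223), within 0.00169 to 0.171. Without the 3 arrays Jun passed at a log2 ratio of 1.09 (0.0431), and at 1.23 (0.0168) without tumor replicate 5 as well. Fosl2 in peritumoral liver passed at -0.39 with array weights (0.0409) and at -0.41 without the 3 arrays (0.0352). Asns in peritumoral liver had 0.0706 with 3 groups and 0.156 with the replicate block, arbitrary here as well.

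Signs turned as follows, all in values that did not pass. In tumors against wild type liver, Fosb was 0.04 after quantile normalization, and Ier2 -0.31 with array weights and -0.33 without the 3 arrays and tumor replicate 5. In peritumoral against wild type liver, Jund was -0.01 after median centering, -0.14 with array weights and -0.11 without the 3 arrays, Myc -0.09 and -0.10 under the latter 2, Fosb -0.01 and -0.04, and Fosl1 0.05 after quantile normalization. In tumors against peritumoral liver, Dusp1 was 0.005 after median centering and 0.08 without the 3 arrays, Junb 0.11 without them, Fosl1 0.03 and Ier2 -0.004 with array weights, and Ier2 -0.10 without the 3 arrays and tumor replicate 5. With 1 array left out, the ranges across 0 were, in tumors against wild type liver, -0.10 to 0.36 for Ier2, -0.64 to 0.28 for Dusp1 and -0.08 to 0.03 for Fosb. In peritumoral liver they were -0.21 to 0.11 for Jund, -0.25 to 0.12 for Ier2, -0.29 to 0.43 for Myc, -0.73 to 0.26 for Dusp1 and -0.03 to 0.06 for Fosb. In tumors against peritumoral liver they were -0.31 to 0.26 for Junb, -0.08 to 0.43 for Ier2, -0.58 to 0.65 for Dusp1, -0.08 to 0.01 for Fosb, -0.13 to 0.02 for Fosl1, -0.05 to 0.19 for Fosl2 and -0.34 to 0.33 for Asns.

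The number of arrays, 5 a group, and the spread between them limit what can be seen. The 95% interval of Dusp1 takes in changes of 1 on the log2 scale in both directions in each comparison. A difference of that size therefore remains possible for Dusp1, and the power to detect it was not computed.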

Other observations

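Among the companion lists, genes whose tumors all lay above all wild type arrays without passing the test were Btg2, a growth-restraining immediate early gene (log2 ratio 2.51, SE 0.72, limma adjusted p = 0.132), Maff, a small Maf protein (1.42, SE 0.51, adjusted p = 0.201), and Trib3, an inhibitor induced by ATF4 (1.79, SE 0.43, adjusted p = 0.0896). Klf2, a factor that endothelial cells induce under flow, lay below all wild type arrays in tumors (-0.76, SE 0.17, adjusted p = 0.0782), as did Mga of the Myc network (-0.46, SE 0.12, adjusted p = 0.106). The metallothionein Mt2 had a mean of 12.19 in peritumoral liver against 8.10 in wild type liver, with overlap (log2 ratio 4.10, SE 1.24, adjusted p = 0.216). Of all genes, 2.23% had all tumors above all wild type arrays, and the share with all tumors below was not counted. No excess in the companion lists was tested. These 6 genes were chosen after their values were seen.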
